A study of Mus musculus with 9 samples.

Results

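Ion channel genes of mouse cumulus cells were read on 9 Affymetrix expression arrays across 3 genotypes. The group took in genes whose symbols begin with Kcn (potassium channels), Scn and a number (voltage-gated sodium channels), Cacn (voltage-gated calcium channels), Clcn (the CLC chloride family) or Trpc, Trpm or Trpv and a number (transient receptor potential cation channels). Kcnab1 was left out by the rule. Membership rests on symbols, so it also holds auxiliary subunits, the protein partner Trpc4ap and the non-coding RNAs Kcnq1ot1 and Kcnmb4os1. Of 18194 genes named on the array, 144 fitted the rule, and 96 of these passed the level filter and were tested among 13447 genes in all. A gene passed where 3 or more of its 9 values lay above the 40th percentile of their array.

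Cumulus cells are the granulosa cells around the oocyte. They came from wildtype females, from Bmp15-/- females, and from Bmp15-/-Gdf9+/- females (called DM, double mutant), with 3 arrays per genotype. BMP15 and GDF9 are growth factors that the oocyte secretes and to which cumulus cells respond, so DM cells had an oocyte with no BMP15 and 1 intact copy of Gdf9. A group with the Gdf9 change alone was not analysed here. All 3 groups shared a B6/129 background, an age of 4 to 5 months, priming with 5 IU of equine chorionic gonadotropin for 48 hours, large antral follicles and 5 µM milrinone, which keeps oocytes arrested, in the collection medium. Each sample pooled cells from 75 to 100 cumulus-oocyte complexes of 3 to 4 mice.

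Ion channels let ions cross a membrane down their gradients. Potassium channels hold the membrane near the potassium potential, calcium channels couple a change of voltage to calcium entry, CLC proteins move chloride at the plasma membrane or exchange it for protons in endosomes and lysosomes, and TRP channels pass calcium and sodium after chemical or physical stimuli. Granulosa cells are coupled to each other and to the oocyte by gap junctions, which let ions and small molecules pass between the cells.

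Signs of the tissue, of other cells and of RNA quality were read for all arrays. All 11 granulosa and cumulus markers on the array, Foxl2 and Fshr among them, exceeded the 40th percentile on 9 of 9 arrays. Their levels were not constant. With limma Slc38a3 (2.36-fold), Amhr2 and Nr5a2 rose in DM, and Kitl (2.48-fold), Foxl2 (1.72-fold), Inhbb and Npr2 fell. That is 63.6% of these markers, against 28.1% of all genes. Kitl and Npr2 also fell in Bmp15-/-, or 18.2% against 9.07%. The mean of 16 tested oocyte markers was 5.75 to 7.19 on wildtype, 5.55 to 6.60 on Bmp15-/- and 5.41 to 5.93 on DM arrays (log2), and was highest on wildtype array 2 and Bmp15-/- array 2. Of these markers Tle6 fell 1.57-fold in Bmp15-/- and 1.97-fold in DM (limma adjusted p = 0.0167 and 0.000765). The other 15 were not called, so the share was 6.25% in each mutant, against 9.07% and 28.1% of all genes. Of 6 tested theca and stroma markers 4 rose and 1 fell in DM, or 83.3% against 28.1% of all genes. Acta2 rose 4.26-fold and Pdgfra 2.96-fold (limma adjusted p = 0.000117 and 0.000503), Ptch1 1.48-fold and Col1a1 1.46-fold (0.00371 and 0.0257). Pdgfrb fell 1.29-fold (0.0359) and Col3a1 was not called. In Bmp15-/- Pdgfra rose 1.90-fold and Pdgfrb fell 1.34-fold (limma adjusted p = 0.0197 and 0.0451), or 33.3% against 9.07% of all genes. Cyp17a1, Col1a2, Dcn and Lum did not pass the level filter. The median of that list was 5.03 to 5.33 in wildtype and 5.30 to 5.59 in DM. Of 6 tested surface epithelium markers Krt8 rose 1.53-fold in Bmp15-/- and 1.46-fold in DM (limma adjusted p = 0.0272 and 0.0173), and Krt18 rose 2.25-fold in DM (0.00364). These made 16.7% in Bmp15-/- and 33.3% in DM, against 9.07% and 28.1% of all genes. Krt7, Upk3b, Lgals7 and Epcam were not called, and Krt19 and Cdh1 did not pass the level filter. The list median was 5.74 to 6.11 on wildtype and 5.98 to 6.00 on DM arrays. The 1 tested erythroid marker, Alas2, fell 3.95-fold in Bmp15-/- and 6.00-fold in DM (limma adjusted p = 0.00746 and 0.000553). Hba-a1, the other erythroid marker on the array, did not pass the level filter. Its values were 3.84 to 4.01 on wildtype and 4.04 to 4.22 on mutant arrays, so it was not lower in the mutants. The 6 tested endothelium, leukocyte and neuron markers were not called with limma. The targeted gene Bmp15 was at 5.10 on wildtype array 1, at 9.58 and 8.41 on wildtype arrays 2 and 3, and at 5.05 to 5.10 on the 6 mutant arrays. Bmp15 is an oocyte transcript, so the low value on wildtype array 1 does not check its label. For Gapdh the 3' control probe set stood above the 5' one by 0.52 to 0.59 on wildtype, 0.66 to 0.73 on Bmp15-/- and 0.79 to 0.95 on DM arrays, so it moved with genotype. The same measure for beta-actin was 1.87 to 1.90, 1.85 to 1.92 and 1.85 to 2.12 in that order of groups, and its ranges overlapped. The part of RNA quality and of theca, stroma, epithelial or erythroid RNA in the results was not tested. The 16 oocyte markers include the targeted genes Bmp15 and Gdf9, so their mean partly carries genotype and does not measure oocyte RNA alone. With the oocyte marker mean as a covariate, 3 channel genes were higher and 2 lower in Bmp15-/-, and 10 higher and 5 lower in DM. In the same fit 1.99% and 3.35% of all genes were called higher and lower in Bmp15-/-, and 6.57% and 12.0% in DM. In cell pools of this kind fewer cells of a type and less RNA per cell cannot be told apart.

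The 48 channel genes set aside as dim were 32 of 83 potassium, 3 of 11 sodium, 6 of 24 calcium, 1 of 7 chloride and 6 of 19 TRP genes. Just inside the filter lay Kcns3, Kcne1 and Scn4b, each above the 40th percentile on 3 of 9 arrays. Just outside lay Kcnj6 and Kcnu1, above it on 2 arrays, and Kcnh8, above it on 1 array. The lowest and highest values were 4.70 and 5.16 for Kcns3 and 4.84 and 5.14 for Kcnj6 (log2), so genes on either side of the filter had overlapping values. Of the 96 tested genes, 32 exceeded the 60th percentile on all 9 arrays, and 64 did not.

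The comparison of Bmp15-/- with wildtype asks which channel transcripts differ when the oocyte makes no BMP15. The potassium channel Kcnd3, the calcium channel Cacna1d with the calcium channel auxiliary subunit Cacna2d1, the sodium channel Scn1a and the inward rectifier Kcnj11 rose, by 1.31-fold to 2.81-fold. The calcium channel Cacna1a and the large-conductance potassium channel Kcnma1 fell 2.02-fold and 1.96-fold. With limma and Benjamini-Hochberg adjustment over all tested genes, 7 of 96 channel genes were called at an adjusted p under 0.05, or 7.29%, against 9.07% of all genes. By direction, 5.21% of channel genes were higher, against 3.29% of all genes, and 2.08% were lower, against 5.78%. The median change was 0.04 for channel genes and -0.04 for all genes (log2). At an unadjusted p under 0.05 it was 22.9% of channel genes against 26.4% of all genes. Arrays did not overlap, with the mutant higher, for 17.7% against 13.4%, and with the mutant lower for 9.38% against 23.4%. Leaving out 1 array at a time gave 1 to 9 higher and 1 to 3 lower channel genes. Over all genes the share called then ran from 1.13% to 4.06% higher and from 2.18% to 8.31% lower. There were 3 higher without wildtype array 1 or 3 or Bmp15-/- array 2 (1.70%, 1.52% and 1.71% of all genes). Without wildtype array 2 there were 2 higher (1.24%) and 1 lower (2.21%). Without Bmp15-/- array 3 there was 1 of each (1.13% and 2.18%). Without DM array 2, which enters only the shared estimate of spread, there were 9 higher (4.06%) and 3 lower (8.31%). After quantile normalization the lower genes made up 46.8% of all called genes in place of 63.7%, and 22.2% of called channel genes in place of 28.6%. The higher genes were then 7.29% of channel genes against 4.39% of all genes, and the lower ones 2.08% against 3.87%.

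DM against wildtype asks the same of a loss of BMP15 together with 1 copy of Gdf9. Among potassium channels Kcnd3, Kcnc2, Kcnq5, Kcnk1, Kcnk2, Kcnk15, Kcnt2 and Kcnj11 rose and Kcnma1, Kcnj4 and Kcne2 fell. Among calcium channels Cacna1d, Cacna1b and Cacna2d1 rose and Cacna1a fell. Scn1a and Trpm1 rose, and Trpc6 and Clcn3 fell. These made 13 genes higher and 6 lower, 19 of 96 or 19.8%, against 28.1% of all genes tested. The higher genes were 13.5% of channel genes against 9.95% of all genes, and the lower ones 6.25% against 18.2%. The median change was 0.01 for channel genes and -0.06 for all genes (log2). At an unadjusted p under 0.05 the shares were 26.0% and 40.1%. Arrays did not overlap, with DM higher, for 19.8% against 15.9%, and with DM lower for 14.6% against 27.4%. One-array-out counts ran from 10 to 15 higher and from 3 to 7 lower, with 3 lower without wildtype array 3 (12.9% of all genes). Over all genes the share called then ran from 7.06% to 10.2% higher and from 12.5% to 20.8% lower. After quantile normalization the lower genes made up 51.7% of all called genes in place of 64.6%, and 27.8% of called channel genes in place of 31.6%. The higher genes were then 13.5% of channel genes against 12.9% of all genes, so these shares were close. The lower ones were 5.21% against 13.8%.

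**Figure D1:**
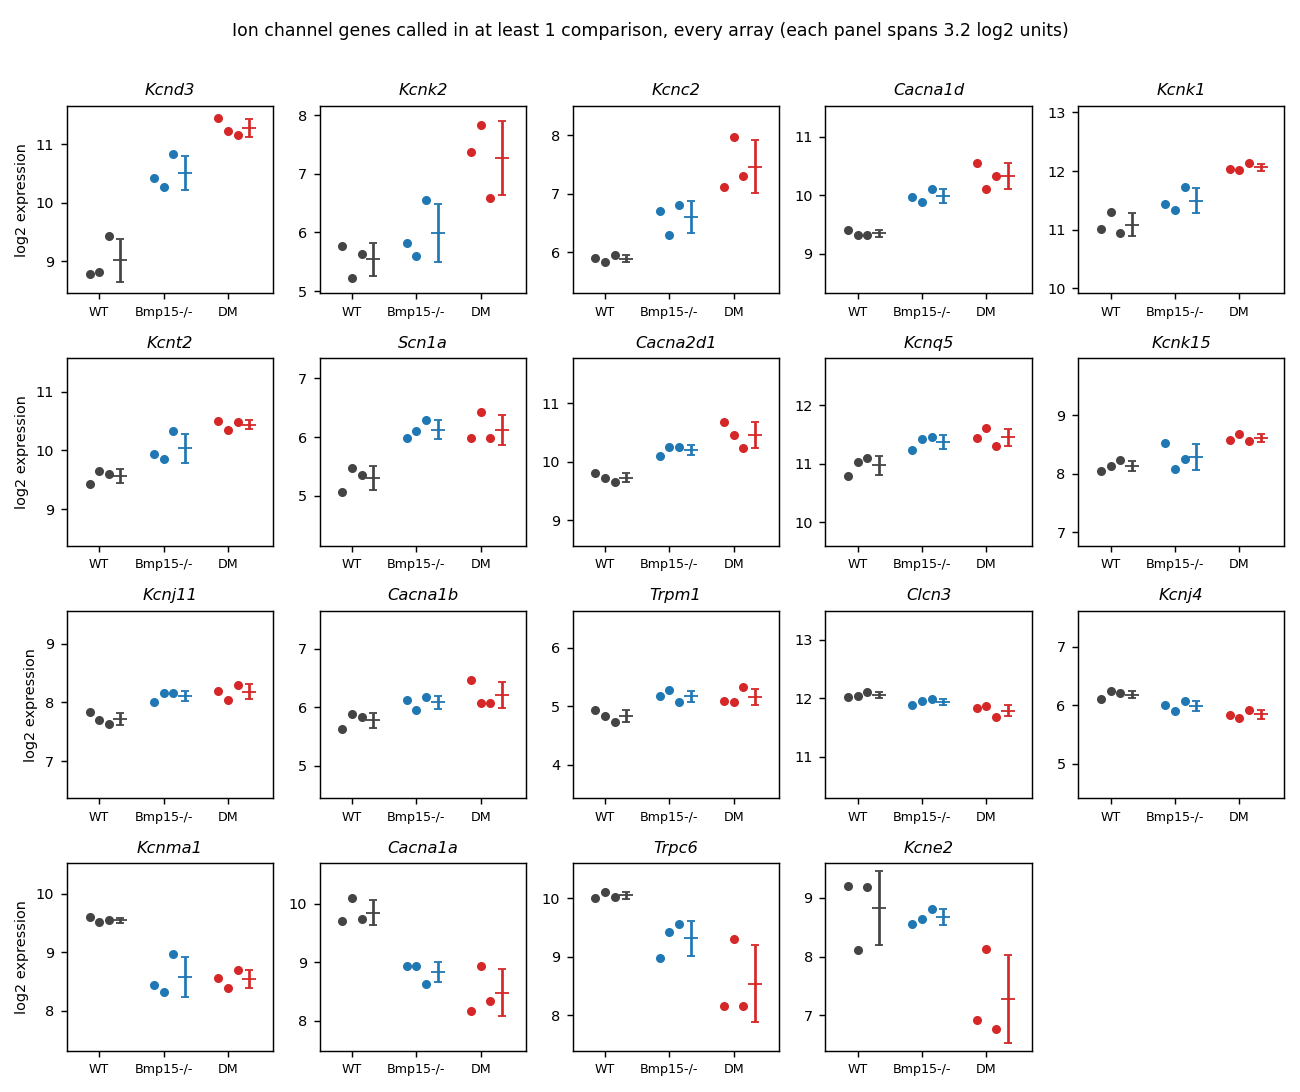
Deposited log2 expression on every array (points) with the group mean and SD over 3 arrays (bars) for the 19 channel genes called in at least 1 comparison, ordered from the largest rise to the largest fall in DM. All panels span the same number of log2 units. Kcnd3 steps up from 9.01 in wildtype to 10.50 in Bmp15-/- and 11.28 in DM, while Kcne2 on DM array 2 lies at 8.13, within the wildtype range.

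Channel genes that exceeded the 60th percentile on all 9 arrays held most of the calls. Of these 32 genes, 8 rose and 5 fell in DM, or 40.6%, against 33.5% of the 8919 genes of the array that met the same level. Of the other 64 channel genes, 5 rose and 1 fell, or 9.38%, against 17.6% of 4528 genes. In Bmp15-/- the shares were 18.8% and 1.56%, against 10.1% and 6.96% of all genes at those levels. No difference between channel genes and other genes was tested.

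Voltage-gated potassium channel pores open on depolarisation and carry current that restores the resting potential. Of 31 such genes on the array 19 were tested. In DM 3 rose, 0 fell and 16 did not pass, and in Bmp15-/- 1 rose and 18 did not pass. Called genes were thus 15.8% in DM, against 28.1% of all genes, and 5.26% in Bmp15-/-, against 9.07%. Against Bmp15-/-, DM stood higher without overlap for Kcnc2 and Kcnd3 and lower for Kcna4, Kcng1 and Kcnq3, but with limma 0 of the 19 passed there, and 4 had an unadjusted p under 0.05. Over all genes in that comparison, arrays did not overlap with DM higher for 8.95% and with DM lower for 12.5%. There 3.25% of all genes were called, and 19.9% had an unadjusted p under 0.05.

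Kcnd3 encodes a pore subunit of the fast inactivating A-type potassium current. Its levels were 8.79, 8.82 and 9.43 across wildtype arrays, 10.41, 10.27 and 10.83 across Bmp15-/- arrays and 11.45, 11.23 and 11.15 across DM arrays (log2, arrays 1 to 3). No array of one genotype overlapped another genotype, and the order was wildtype, Bmp15-/-, DM. It rose 2.81-fold in Bmp15-/- (1.49 ± 0.20 log2 units, SE, limma adjusted p = 0.00344) and 4.80-fold in DM (2.26 ± 0.20, adjusted p = 0.000104). The step from Bmp15-/- to DM, 0.77 ± 0.20, did not pass with limma (adjusted p = 0.0663, and 0.0462 without wildtype array 3). Both calls against wildtype held under all 21 alternatives run on single genes. The mean of all its probe sets gave 0.47 and 0.68 in the 2 mutants, as it takes in 3 other probe sets that lay below the level filter, with values between 3.77 and 5.24.

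The start region of Kcnd3 is shown because it had the largest change among the channel genes. It spans chr3:105451640-105451939 of build GRCm38.p6, plus strand, 250 bases before to 50 after the RefSeq start, and capitals mark the SMAD box CAGAC.
Kcnd3: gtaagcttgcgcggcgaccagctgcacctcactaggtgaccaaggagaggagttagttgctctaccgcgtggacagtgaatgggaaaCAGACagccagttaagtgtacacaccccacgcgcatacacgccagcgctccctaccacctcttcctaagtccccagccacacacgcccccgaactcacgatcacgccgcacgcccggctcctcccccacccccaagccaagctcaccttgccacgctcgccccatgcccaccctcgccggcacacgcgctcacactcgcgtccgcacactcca
Start regions were found for 74 of the 96 tested genes, 104 regions in all, and searched on both strands for CAGAC (reverse complement GTCTG), for the GC-rich SMAD element GGCGCC and for the cAMP response element TGACGTCA, none of which contains another. CAGAC was in 54.8% of the channel gene regions and 49.6% of 32851 regions of the same length. GGCGCC was in 16.3% and 11.9%, and TGACGTCA in 1.92% and 1.79%. Of 28 regions of called channel genes, 53.6% held CAGAC, 17.9% GGCGCC and 3.57% TGACGTCA. A match describes letters in the window and no site of binding.

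Kcnc2, a pore subunit of fast delayed rectifier channels, was at 5.90, 5.83 and 5.95 across wildtype arrays, 6.71, 6.29 and 6.81 across Bmp15-/- arrays and 7.11, 7.97 and 7.30 across DM arrays. The 3 genotypes did not overlap. It rose 2.96-fold in DM (1.57 ± 0.21 log2 units, limma adjusted p = 0.000828), and its change of 0.71 ± 0.21 in Bmp15-/- did not pass (adjusted p = 0.0646, and 0.014 without DM array 2). The 3 wildtype arrays lay below the 60th percentile of their array and the 6 mutant arrays above it. Kcnq5, a pore subunit of the slow M-type current, was at 10.97 ± 0.16 in wildtype and 11.45 ± 0.15 in DM (SD, n = 3). It rose 1.39-fold in DM (limma adjusted p = 0.0141), a call lost without wildtype array 1 (adjusted p = 0.0538). Its change in Bmp15-/- was 0.40 ± 0.12 (limma adjusted p = 0.0625, and 0.0465 without DM array 2).

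Two-pore-domain potassium channels carry the leak current that sets the resting potential. Of 12 genes on the array 10 were tested, and in DM 3 rose, 0 fell and 7 did not pass. The share called in DM, 30%, was near the 28.1% of all genes. In Bmp15-/- 0 of the 10 passed with limma, against 9.07% of all genes, and 1 had an unadjusted p under 0.05, against 26.4%.

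Kcnk1, which encodes a weak background channel, was at 11.00, 11.30 and 10.94 across wildtype arrays, 11.43, 11.33 and 11.73 across Bmp15-/- arrays and 12.03, 12.02 and 12.13 across DM arrays. The genotypes again formed 3 separate ranges, with DM the tightest (SD 0.06). It rose 1.97-fold in DM against wildtype (0.98 ± 0.13 log2 units, limma adjusted p = 0.000773), and a second tested probe set was called in the same direction at 0.61. Against Bmp15-/- it was 1.48-fold higher in DM (0.57 ± 0.13, limma adjusted p = 0.0488). It is 1 of 96 channel genes called in that comparison, or 1.04%, against 3.25% of all genes. That call held in 1 of 9 fits that left out an array, namely without Bmp15-/- array 3, and adjusted p ran from 0.0319 to 0.158 over these fits.

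Kcnk2 encodes a channel opened by membrane stretch and lipids. It was at 5.77, 5.22 and 5.64 across wildtype arrays, 5.82, 5.60 and 6.56 across Bmp15-/- arrays and 7.38, 7.83 and 6.58 across DM arrays. All 3 DM arrays were above all others, but DM array 3 was only just above Bmp15-/- array 3. The rise in DM was 3.31-fold (1.72 ± 0.33 log2 units, limma adjusted p = 0.00467), and the step over Bmp15-/-, 1.27 ± 0.33, did not pass (adjusted p = 0.0692, and 0.0356 without DM array 3). Kcnk15 rose from 8.14 ± 0.09 to 8.61 ± 0.07 in DM (SD, n = 3), 1.39-fold, at limma adjusted p = 0.0149 and 0.0567 without wildtype array 1. Kcnk3, Kcnk5, Kcnk7, Kcnk10, Kcnk12, Kcnk13 and Kcnk16 did not pass in any comparison.

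Channels gated by intracellular calcium or sodium link ion entry to potassium exit. Of 7 tested genes, 1 rose and 1 fell in DM and 1 fell in Bmp15-/-. The share called was 28.6% in DM, near the 28.1% of all genes, and 14.3% in Bmp15-/-, against 9.07%. Kcnma1, the pore of the large-conductance calcium-activated channel, was at 9.59, 9.51 and 9.54 across wildtype arrays, 8.45, 8.33 and 8.96 across Bmp15-/- arrays and 8.55, 8.38 and 8.69 across DM arrays. Wildtype arrays lay within a narrow band, and all mutant arrays lay below them with overlap between the mutants. It fell 1.96-fold in Bmp15-/- and 2.01-fold in DM (limma adjusted p = 0.00751 and 0.0018), and DM minus Bmp15-/- was -0.04 with a 95% interval from -0.39 to 0.32. Of 2 other tested probe sets, 1 was called lower in DM at -1.03. The other, whose 9 values lay between 3.66 and 5.49 and had the largest variance, was at -1.17 in Bmp15-/- and -0.39 in DM and was not called. The call in Bmp15-/- was also lost without wildtype array 2 and Bmp15-/- array 2 together (limma adjusted p = 0.0781).

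The start region of Kcnma1 is shown because the gene fell in both mutants. It spans chr14:24004156-24004455 of build GRCm38.p6, minus strand, and is written 5' to 3' along the gene, with capitals on the GC-rich SMAD element GGCGCC, here 1 match, and 0 matches to CAGAC.
Kcnma1: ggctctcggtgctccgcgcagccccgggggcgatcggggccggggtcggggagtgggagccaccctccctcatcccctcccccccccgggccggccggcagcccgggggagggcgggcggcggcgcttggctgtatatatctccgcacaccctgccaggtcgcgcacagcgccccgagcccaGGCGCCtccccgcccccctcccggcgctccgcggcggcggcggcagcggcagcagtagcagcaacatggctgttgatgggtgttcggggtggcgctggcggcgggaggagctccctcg
Its GC content was 78% against 64% in the Kcnd3 region and a median of 52.7% over all regions.

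Kcnt2, a sodium-activated potassium channel pore, moved the other way. It was at 9.42, 9.66 and 9.60 across wildtype arrays, 9.94, 9.85 and 10.32 across Bmp15-/- arrays and 10.50, 10.35 and 10.48 across DM arrays. The 3 ranges did not overlap, and DM lay 1.84-fold above wildtype (0.88 ± 0.13 log2 units, limma adjusted p = 0.00131). In Bmp15-/- the change of 0.48 ± 0.13 missed the threshold (limma adjusted p = 0.0513, and 0.0497 without DM array 2). Against Bmp15-/- it was higher in DM by 0.41 and not called (limma adjusted p = 0.123), but was called without Bmp15-/- array 3 (0.0409). The small-conductance genes Kcnn1, Kcnn2, Kcnn3 and Kcnn4, and Kcnt1, did not pass in any comparison.

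Inward rectifiers pass potassium inward more easily than outward. Of 15 on the array 6 were tested. Kcnj11, the pore of the ATP-sensitive potassium channel, was at 7.83, 7.70 and 7.63 across wildtype arrays, 8.01, 8.17 and 8.16 across Bmp15-/- arrays and 8.20, 8.05 and 8.30 across DM arrays. Both mutants lay above wildtype and overlapped each other. It rose 1.31-fold in Bmp15-/- and 1.38-fold in DM (limma adjusted p = 0.0384 and 0.00761). The call in Bmp15-/- was lost without wildtype array 1, 2 or 3 or Bmp15-/- array 2 or 3, at adjusted p of 0.0583 to 0.124. A second tested probe set had changes of 0.07 and -0.25 that were not called. Kcnj4, a strong inward rectifier, fell 1.26-fold in DM, from 6.19 ± 0.07 to 5.85 ± 0.07 (SD, n = 3, limma adjusted p = 0.0159), and missed the threshold without wildtype array 2 (0.0591) or 3 (0.0529). All 9 of its arrays lay below the 60th percentile. Kcnj3, Kcnj9, Kcnj12 and Kcnj14 did not pass in any comparison. For Kcnj3 a second tested probe set was called lower in DM at -0.81 (limma adjusted p = 0.0184) and another was at -0.91 (0.0606), where the one that stood for the gene was at -0.28.

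Auxiliary subunits and regulators of potassium channels numbered 17 on the array, of which 9 were tested. In DM 1 fell, or 11.1% against 28.1% of all genes called. Kcne2 is a small single-pass subunit that alters the gating of voltage-gated potassium pores. It was at 9.21, 8.11 and 9.18 across wildtype arrays, 8.55, 8.64 and 8.82 across Bmp15-/- arrays and 6.92, 8.13 and 6.76 across DM arrays. Wildtype array 2 and DM array 2 met at 8.11 and 8.13, so the groups overlapped although DM was 2.95-fold lower on average (-1.56 ± 0.38 log2 units, limma adjusted p = 0.0137). Without wildtype array 1, wildtype array 3 or DM array 1 it missed the threshold (limma adjusted p = 0.0543, 0.0527 and 0.0507). Without DM array 2 it fell by 1.99 at limma adjusted p = 0.00183, and DM was then also called below Bmp15-/- (-1.83, limma adjusted p = 0.0124) where the 9 arrays gave -1.40 (0.0775). Kcnip1, Kcnip2, Kcnip3, Kcnab3, Kcne1, Kcne3 and the non-coding Kcnq1ot1 and Kcnmb4os1 did not pass.

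Pore subunits of voltage-gated calcium channels set the voltage range and the kind of calcium current. Of 7 tested, 1 rose and 1 fell in Bmp15-/-, and 2 rose and 1 fell in DM. These made 28.6% in Bmp15-/-, against 9.07% of all genes, and 42.9% in DM, against 28.1%, a difference that was not tested. Cacna1a, the pore of P/Q-type channels, was at 9.70, 10.09 and 9.75 across wildtype arrays, 8.93, 8.93 and 8.63 across Bmp15-/- arrays and 8.18, 8.93 and 8.34 across DM arrays. Wildtype lay above every mutant array, and DM array 2 stood with the Bmp15-/- arrays. It fell by 1.02 ± 0.19 log2 units in Bmp15-/- and by 1.36 ± 0.19 in DM (SE, limma adjusted p = 0.0145 and 0.00111). The first call was lost without wildtype array 2 (limma adjusted p = 0.0609) or Bmp15-/- array 3 (0.0621). One of its other probe sets was called lower in both mutants, at -1.47 and -1.61, and another, at 0.18 and 0.08, was not called.

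Cacna1d, the pore of an L-type channel that opens at low voltage, was at 9.42, 9.32 and 9.32 across wildtype arrays, 9.98, 9.88 and 10.12 across Bmp15-/- arrays and 10.56, 10.11 and 10.33 across DM arrays. Every mutant array was above every wildtype array, and Bmp15-/- array 3 met DM array 2. It rose 1.56-fold in Bmp15-/- and 1.97-fold in DM (limma adjusted p = 0.013 and 0.000507), and the former call was lost without wildtype array 2 (0.0539) or Bmp15-/- array 3 (0.0561). A second tested probe set, between 5.25 and 5.54 on all arrays, had changes of -0.04 and -0.10 that were not called. DM minus Bmp15-/- was 0.34 and not called (limma adjusted p = 0.152), but was called without DM array 2 (0.0457). Cacna1b, the pore of N-type channels, rose 1.34-fold in DM from 5.78 ± 0.13 to 6.20 ± 0.22 (SD, n = 3, limma adjusted p = 0.0313). It missed the threshold without wildtype array 1, 2 or 3 or DM array 1 (adjusted p of 0.0511 to 0.11) and with the replicate number as a block (0.0538). Cacna1c, Cacna1f, Cacna1g and Cacna1h did not pass.

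Auxiliary calcium channel subunits assist surface delivery and gating. Of 11 tested, 1 rose in each mutant, or 9.09%, against 9.07% of all genes called in Bmp15-/- and 28.1% in DM. Cacna2d1, an extracellular alpha2delta subunit and a binding site of gabapentin, was at 9.81, 9.72 and 9.66 across wildtype arrays, 10.11, 10.26 and 10.26 across Bmp15-/- arrays and 10.68, 10.46 and 10.24 across DM arrays. Both mutants lay above wildtype, with DM array 3 inside the Bmp15-/- range. It rose 1.39-fold in Bmp15-/- and 1.66-fold in DM (limma adjusted p = 0.0356 and 0.00194). The former call was lost without wildtype array 1, 2 or 3 or Bmp15-/- array 1, 2 or 3 (adjusted p of 0.0525 to 0.117) and with the replicate block (0.0511). A second tested probe set had changes of 0.17 and 0.20 that were not called. The other alpha2delta genes Cacna2d2 and Cacna2d4, the beta subunits Cacnb1 and Cacnb4 and 6 gamma subunits did not pass.

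**Figure D2:**
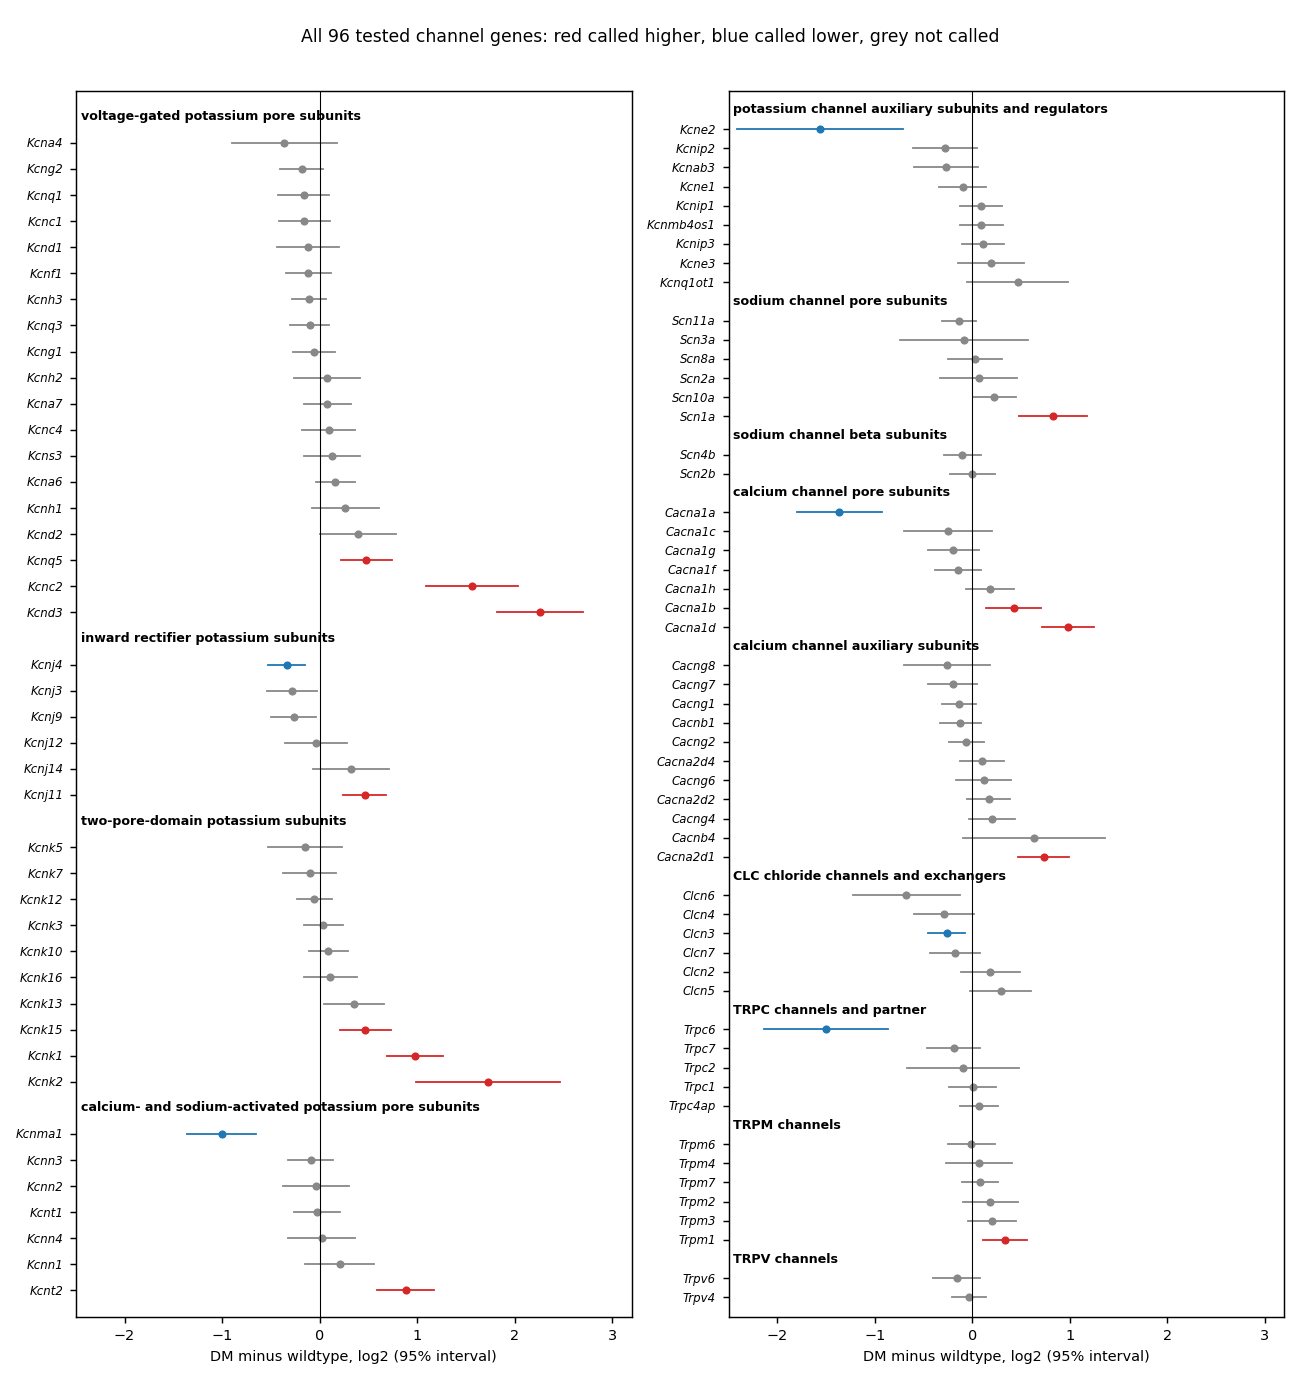
Change of each of the 96 tested channel genes in DM against wildtype (log2, points) with its 95% interval from the limma fit (lines), grouped by family. Red genes were called higher, blue genes lower and grey genes were not called. The 19 called genes run from -1.56 for Kcne2 to 2.26 for Kcnd3, and the 77 others from -0.68 to 0.63.

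Voltage-gated sodium channels drive fast action potentials in excitable cells. Of 8 tested genes, 6 pores and 2 beta subunits, 1 rose in each mutant. The share, 12.5%, stood against 9.07% of all genes called in Bmp15-/- and 28.1% in DM. Scn1a, a pore subunit best known from neurons, was at 5.06, 5.47 and 5.36 across wildtype arrays, 5.98, 6.11 and 6.30 across Bmp15-/- arrays and 5.98, 6.42 and 5.98 across DM arrays. All mutant arrays were above all wildtype arrays, and the mutants overlapped. It rose 1.78-fold in Bmp15-/- and 1.77-fold in DM (limma adjusted p = 0.0133 and 0.00438), and the former call was lost without Bmp15-/- array 3 (0.0569). These are low values, with 2 of 9 arrays above the 60th percentile, and a second tested probe set had changes of 0.07 and -0.24 that were not called. Scn2a, Scn3a, Scn8a, Scn10a, Scn11a, Scn2b and Scn4b did not pass. Of 7 neuron markers 2 passed the level filter, Tubb3 and Elavl4, both above the 40th percentile on 9 of 9 arrays and not called in any comparison. Snap25, Syt1, Nefl, Nefm and Stmn2 did not pass the filter. The part of neuronal RNA was not tested.

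CLC genes include plasma membrane chloride channels and the chloride-proton exchangers of endosomes and lysosomes. Of 6 tested, 1 fell in DM and 0 passed with limma in Bmp15-/-, where 1 had an unadjusted p under 0.05. The share called in DM was 16.7%, against 28.1% of all genes. In Bmp15-/- 9.07% of all genes were called, and 26.4% had an unadjusted p under 0.05. Clcn3, an endosomal exchanger, was at 12.02, 12.05 and 12.11 across wildtype arrays, 11.88, 11.95 and 11.99 across Bmp15-/- arrays and 11.83, 11.87 and 11.68 across DM arrays. The 3 ranges did not overlap, but the fall in DM was small, 1.20-fold (-0.26 ± 0.08 log2 units, limma adjusted p = 0.0405). It held in 2 of 9 fits that left out an array, those without Bmp15-/- array 1 or DM array 2, and missed the threshold in the others at adjusted p of 0.0542 to 0.122. With the replicate block it was 0.0703. Of 4 other tested probe sets, 3 were called lower in DM, at -0.58, -0.66 and -0.75, and 1 was at 0.17 and not called. Clcn2, Clcn4, Clcn5, Clcn6 and Clcn7 did not pass. A second tested probe set of Clcn4 was called lower in both mutants, at -0.54 and -0.70 (limma adjusted p = 0.0282 and 0.00322), where the one that stood for the gene was at -0.13 and -0.29. Clcn6 had a change of -0.68 in DM with a 95% interval from -1.23 to -0.13.

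**Figure D3:**
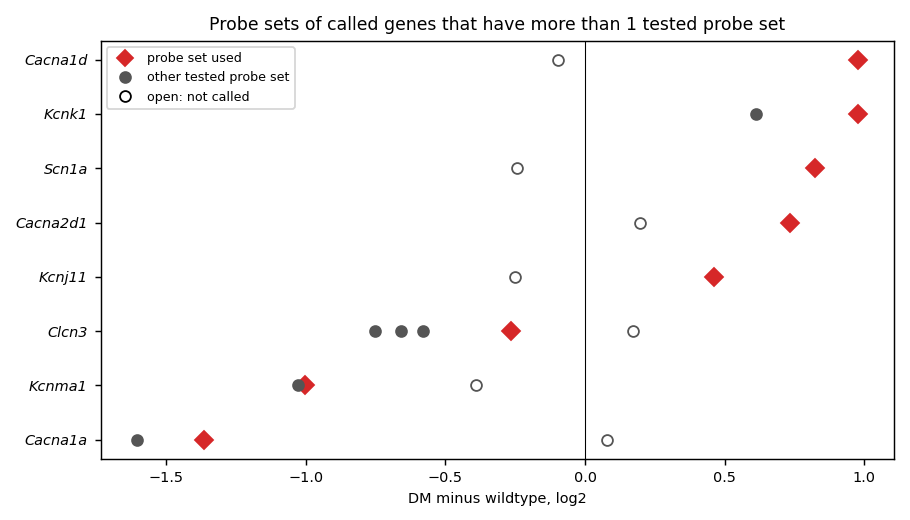
Change in DM against wildtype (log2) of every tested probe set for the 8 called channel genes that have more than 1. Diamonds are the probe set that represents the gene and circles the others; open symbols were not called. Of 13 other probe sets 8 moved in the same direction, 6 of them called, and 5 in the opposite direction, with 0 called.

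TRP genes gave 13 tested members, of which 1 rose and 1 fell in DM and 0 passed in Bmp15-/- with limma, where 3 had an unadjusted p under 0.05. The share called in DM was 15.4%, against 28.1% of all genes. In Bmp15-/- 9.07% of all genes were called, and 26.4% had an unadjusted p under 0.05. Trpc6, a cation channel opened by diacylglycerol downstream of phospholipase C, was at 10.01, 10.11 and 10.02 across wildtype arrays, 8.98, 9.42 and 9.55 across Bmp15-/- arrays and 8.16, 9.31 and 8.16 across DM arrays. Wildtype was tight and above all mutant arrays, while DM array 2 lay among the Bmp15-/- arrays. The fall in DM was 2.84-fold (-1.50 ± 0.28 log2 units, limma adjusted p = 0.00435), and the change in Bmp15-/-, -0.73 ± 0.28, did not pass (0.138). Without DM array 2 that change passed (limma adjusted p = 0.0141), as did DM below Bmp15-/- (-1.16, limma adjusted p = 0.00622) in place of -0.77 (0.168). Trpm1, known from melanocytes and the retina, rose 1.26-fold in DM, from 4.83 ± 0.10 to 5.17 ± 0.14 (SD, n = 3, limma adjusted p = 0.0343). Its change in Bmp15-/- was 0.34 (limma adjusted p = 0.0641, and 0.0412 without DM array 3). It lay near the 40th percentile, with the 6 mutant arrays above it and the 3 wildtype arrays below, so it passed the level filter through the groups where it is high and had to differ. Without it 12 channel genes were higher in DM. It missed the threshold without wildtype array 2 or 3 or DM array 1 or 3 (adjusted p of 0.053 to 0.116) and with the replicate block (0.0641). Trpc1, Trpc2, Trpc7, the partner Trpc4ap, Trpm2, Trpm3, Trpm4, Trpm6, Trpm7, Trpv4 and Trpv6 did not pass.

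Genes called in both mutants were Cacna1a, Cacna1d, Cacna2d1, Kcnd3, Kcnj11, Kcnma1 and Scn1a, each in the same direction in both. A further 12 were called in DM and not in Bmp15-/-, and 0 the other way round. Both mutants were set against the same 3 wildtype arrays, so the comparisons are not independent. DM against Bmp15-/- tests the difference itself, and with limma 1 channel gene, Kcnk1, was called higher (1.04%, against 1.64% of all genes) and 0 lower (against 1.61%). At an unadjusted p under 0.05 it was 15 of 96, or 15.6%, against 19.9% of all genes. Arrays did not overlap, with DM higher, for 10.4% against 8.95%, and with DM lower for 10.4% against 12.5%. The other 11 genes called in DM alone did not pass there.

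**Figure D4:**
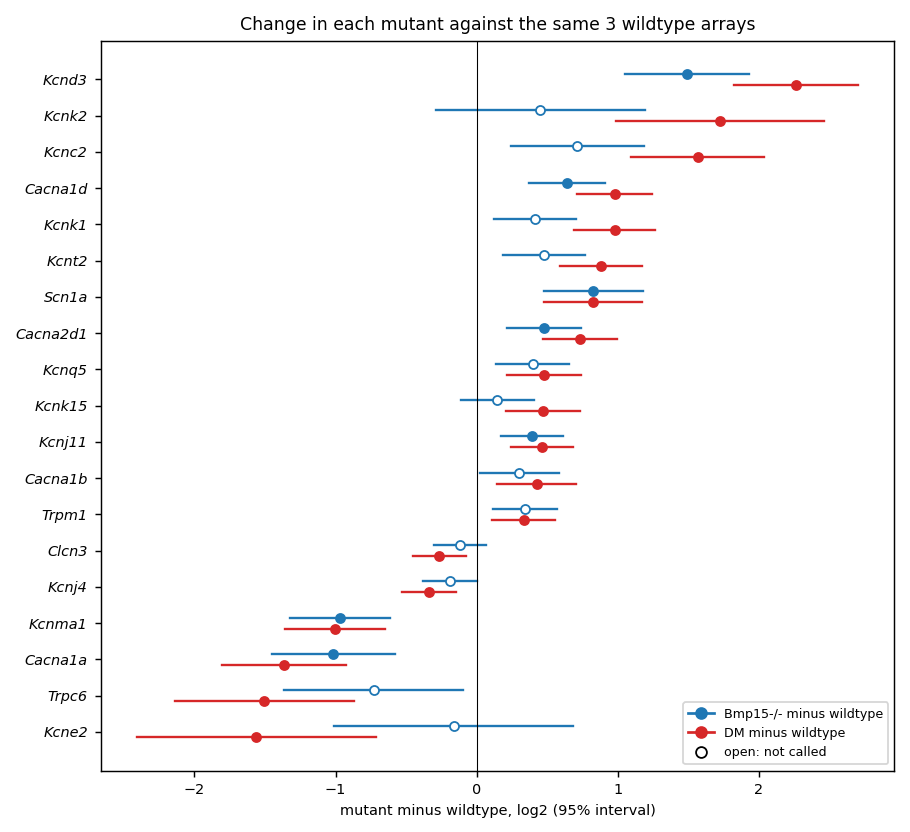
Change against wildtype in Bmp15-/- (blue) and in DM (red) for the 19 called channel genes (log2, points, with 95% intervals as lines); open points were not called. Both sets share their 3 wildtype arrays. For 17 of the 19 genes DM lay beyond Bmp15-/- in the direction of the change, the exceptions being Scn1a and Trpm1. All 19 were called in DM against wildtype, and choosing genes by that change favours this order. Of these genes only Kcnk1 was called in DM against Bmp15-/-.

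The 77 channel genes that were not called in any comparison changed by -0.68 to 0.63 in DM and by -0.47 to 0.54 in Bmp15-/- (log2). For 57 of them the 95% interval of DM minus wildtype lay within 0.5 log2 units of 0 on both sides, and for 75 within 1. The other two, both singled out after their values were seen, were Clcn6 and the calcium channel beta subunit Cacnb4, at 0.63 with an interval from -0.09 to 1.36. The narrowest intervals were those of Trpv4, Kcnh3, Scn11a, Cacng1, Kcnk12 and Cacng2, which lay between -0.31 and 0.14. Kcnh3 was at 7.19 ± 0.04 in wildtype, 7.16 ± 0.05 in Bmp15-/- and 7.08 ± 0.06 in DM (SD, n = 3). Over the 9 arrays the uncalled genes spanned a median of 0.48 log2 units between lowest and highest array, and the 19 called genes 1.19. Calls select genes that differ on these same arrays, so a wider range in called genes follows from the selection. Other tested probe sets numbered 32 for 23 of these genes, and 2 of them, those of Clcn4 and Kcnj3, were called. Of the 77, 19 exceeded the 60th percentile on all 9 arrays and 58 did not.

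Other ion channels outside the rule were read from a separate list, of which 38 genes were tested. In DM 6 rose and 6 fell, or 31.6% against 28.1% of all genes, and in Bmp15-/- 2 rose and 3 fell, or 13.2% against 9.07%. The ATP-gated channel P2rx7 rose 2.31-fold in DM, from 5.25 ± 0.22 to 6.45 ± 0.24 (SD, n = 3, limma adjusted p = 0.00102). The cyclic nucleotide-gated channel Cnga1 fell 1.94-fold (limma adjusted p = 0.00132), the calcium sensor Stim2 1.68-fold (0.00298), and the scramblase and ion channel Ano6 rose 1.70-fold (0.00706). The calcium-activated chloride channel Ano1, named after its values were seen, fell 1.75-fold (0.0135).

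Ion pumps and exchangers maintain the gradients that channels use. Of 21 tested, 2 rose and 6 fell in DM, or 38.1% against 28.1% of all genes, and 1 rose and 4 fell in Bmp15-/-, or 23.8% against 9.07%. The lower ones were 28.6% in DM, against 18.2% of all genes, and no difference between the list and other genes was tested. The list also holds Slc9a3r1, a scaffold protein and no pump or exchanger, named after its values were seen. It was the 1 that rose in Bmp15-/- (1.80-fold, limma adjusted p = 0.00628). In DM it was 1 of the 2 that rose (1.52-fold, limma adjusted p = 0.00833). The 3 beta subunits of the sodium-potassium pump were lower in both mutants. Atp1b3 fell from 11.08 ± 0.06 in wildtype to 10.52 ± 0.02 in Bmp15-/- and 9.97 ± 0.10 in DM (SD, n = 3), a 2.16-fold fall in DM at limma adjusted p = 4.75e-05. Atp1b2 fell 1.94-fold and Atp1b1 2.37-fold in DM (limma adjusted p = 0.00023 and 0.00143). The potassium-chloride cotransporter Slc12a4 fell 1.59-fold (0.00696). Atp1b3 was also lower in DM than in Bmp15-/-, by 0.55 log2 units (limma adjusted p = 0.0103).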

How the data were processed

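The values are log2 expression levels per probe set that the authors deposited in a table of the whole series. RMA and the affy package are named in the submitters' processing notes, with versions not given, and amplification in 2 cycles from 10 ng of RNA is given in the labels' protocols. RMA forces all arrays toward 1 distribution, so a change shared by most genes cannot be seen. The deposited arrays still differed in spread. Their interquartile range was 3.37 to 3.42 on wildtype, 3.20 to 3.29 on Bmp15-/- and 3.16 to 3.34 on DM arrays (log2). The part of this difference in the calls was not tested. Scanner files were not used here. The table has 45101 probe sets, of which 34958 were paired with 1 gene, 932 with several and 9211 with none in the platform annotation, and 34754 of the first were found in the RefSeq table of GRCm38.p6. The probe set with the highest mean stood for its gene, and 13447 of 18194 genes passed the level filter. Levels of different probe sets were compared to choose the probe set of a gene, to place genes against array percentiles and to describe the edge of the filter. Otherwise genes were compared by their changes and not by their levels. Other probe sets of a gene were called in a like fit over every probe set with 1 gene that passed the filter. Changes were fitted with limma 3.58.1 (R 4.3.3, data.table version 1.17.8) with genotype as the only term over all 9 arrays, 6 residual degrees of freedom, and Benjamini-Hochberg adjustment over all 13447 genes. A gene was called at an adjusted p under 0.05, errors on changes are SE, and fold changes are powers of the log2 change. Scripts were tested on simulated data. The p-values measure the spread between pooled samples, and the number of arrays limits precision. The labels number the samples 1 to 3 in each genotype; over 9 same-number pairs the correlation of deviations from the group means was -0.08 to 0.26, with 2 over 0.1, so the numbers were not taken as pairs.

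Members and lists were chosen with earlier results of these data known. Values are given for each member called in any comparison, for uncalled members with arrays apart from wildtype and a change of at least 0.8 (there were none), for the 6 uncalled members with the narrowest intervals in DM, for the 3 genes on either side of the filter, for members with another probe set called the opposite way (none), and for up to 4 genes per list by p in DM. Alternatives covered the filter, the probe set rule, quantile normalization, median centring, a floor, an intensity trend, fits of 2 groups, the replicate number as a block, the oocyte marker mean as a covariate, arrays that do not overlap, and each array left out. Start regions come from RefSeq (GRCm38.p6). Figures were drawn with matplotlib 3.10.9.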

Additional observations from a re-analysis of the deposited data

How the results depend on the processing

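Of 27 calls on channel genes, 10 held their direction and their side of the threshold under every alternative that gave them a value (20 for Cacna2d1, which had none with the probe set of largest variance, and 21 for the others): Kcnd3 in both mutants, and in DM Cacna1a, Cacna1d, Cacna2d1, Kcnc2, Kcnk1, Kcnk2, Kcnt2 and Trpc6. The direction reversed once, for Clcn3 in DM, at 0.17 (limma adjusted p = 0.669) with the probe set of largest variance, as that rule picks another probe set. Counts of called genes moved as follows, with the share of all genes called beside them, and the cause was not tested. In Bmp15-/- the 5 higher (3.29% of all genes) became 2 with the mean of all probe sets (2.75%), 3 with the probe set of largest variance (3.32%), 8 with only the 2 groups compared (4.50%), 3 with the replicate block (3.06%), 3 with the oocyte marker mean as a covariate (1.99%), 1 without wildtype array 2 and Bmp15-/- array 2 (0.498%), and 17 by arrays that do not overlap (13.4%). These took in 72 channel genes for the mean and 77 for the largest variance, in place of 96. The 2 lower (5.78%) became 4 (9.59%), 0 (0.736%) and 9 (23.4%) with only the 2 groups compared, without those 2 arrays, and by arrays that do not overlap. In DM the 13 higher (9.95%) became 8 with the mean of all probe sets (8.90%), and the 6 lower (18.2%) became 14 by arrays that do not overlap (27.4%). Against Bmp15-/- the 1 higher in DM (1.64%) became 0 with no filter (1.02%), the mean of all probe sets (1.56%), the probe set of largest variance (1.78%), only the 2 groups (0.469%), the replicate block (1.44%), the oocyte covariate (1.23%) or without the 2 arrays (0.0223%), 2 with quantile normalization (2.02%), 3 with an intensity trend (2.22%) and 10 by arrays that do not overlap (8.95%), where the 0 lower (1.61%) became 10 (12.5%). Leaving out 1 array at a time gave 1 to 9 higher and 1 to 3 lower in Bmp15-/-, 10 to 15 and 3 to 7 in DM, and 0 to 2 and 0 to 3 in DM against Bmp15-/-. Over all genes the shares then ran from 1.13% to 4.06% higher and 2.18% to 8.31% lower in Bmp15-/-. In DM they ran from 7.06% to 10.2% and 12.5% to 20.8%, and in DM against Bmp15-/- from 0.394% to 2.36% and 0.387% to 4.49%. Leaving out the 2 arrays highest in oocyte markers was chosen after seeing the data. The replicate block ended the calls of Cacna2d1 and Kcnj11 in Bmp15-/-, of Cacna1b, Clcn3 and Trpm1 in DM, and of Kcnk1 in DM against Bmp15-/-, and no other call of a channel gene. Quantile normalization moved the median of all genes by 0.05 and 0.06 in the 2 mutants. Genes near the 40th percentile, such as Trpm1 (0.16 in DM with values floored there, limma adjusted p = 0.222), have changes that background signal limits.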
